A study of Mus musculus with 2 samples.

Results

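The genes described here are 10 members of the vascular endothelial growth factor (VEGF) and angiopoietin system, taken by symbol from the 55536 annotated genes of the tables: the ligand genes Vegfa, Vegfb and Vegfc, the receptor genes Kdr, Flt1 and Flt4, the co-receptor genes Nrp1 and Nrp2, and the angiopoietin gene Angpt2 with its receptor gene Tek. All 10 symbols matched 1 gene each. The samples were adrenal glands of female mice aged 4 days, of the strain B6CASTF1/J, the first-generation cross of C57BL/6J with CAST/EiJ, an inbred strain founded from wild mice. They formed 1 group of 2 biological replicates, untreated as far as the labels say, and each library was total RNA-seq from 300 ng of RNA with spike-in controls. The label texts disagree on which animal replicate 2 came from, since 1 of its texts names the same animal as replicate 1 and another names a different one, so the spread between the samples may be partly technical. The replicates are called animals below, though the labels leave that unsettled. With 2 samples of 1 group no comparison between conditions exists. The smallest p of an exact two-sided sign-permutation test is 0.5, so levels and differences are given as descriptions. For the same reason no other gene can be called like these in its pattern over samples.

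VEGF ligands are secreted proteins that bind receptor tyrosine kinases on endothelial cells and drive the growth, survival and permeability of blood and lymph vessels. The adrenal gland is richly vascularised, with capillaries of a fenestrated endothelium running between the cords of steroid-making cells, and VEGF-A from epithelial and endocrine cells is known to maintain such fenestrated beds. Angiopoietins act on the receptor TIE2, the product of Tek, and set how stable or how open to remodelling a vessel is, with angiopoietin 2 known mainly as a context-dependent antagonist made by endothelial cells.

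Splicing decides where VEGF proteins go, so the junctions that tell the isoforms apart are shown. Vegfa exons 6 and 7 encode basic, heparin-binding stretches: VEGF120 lacks both and diffuses, VEGF164 has exon 7, and VEGF188 has both and stays at the matrix. In each junction the last 15 bases of exon 5 are in lower case and the first 15 bases of the next exon in capitals. Sequences are from the GENCODE M21 transcripts on the minus strand of mm10, and the junctions to exons 8, 7 and 6 span chr17:46018879-46024065, chr17:46021122-46024065 and chr17:46022348-46024065.
VEGF120 junction, exon 5 to exon 8: aacaaagccagaaaaATGTGACAAGCCAAG
VEGF164 junction, exon 5 to exon 7: aacaaagccagaaaaTCACTGTGAGCCTTG
VEGF188 junction, exon 5 to exon 6: aacaaagccagaaaaAAAATCAGTTCGAGG

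The alternative exons themselves are 72 bases (exon 6, chr17:46022277-46022348) and 132 bases (exon 7, chr17:46020991-46021122) long, and both are coding throughout.
Vegfa exon 6: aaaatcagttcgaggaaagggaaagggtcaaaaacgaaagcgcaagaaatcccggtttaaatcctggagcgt
Vegfa exon 7: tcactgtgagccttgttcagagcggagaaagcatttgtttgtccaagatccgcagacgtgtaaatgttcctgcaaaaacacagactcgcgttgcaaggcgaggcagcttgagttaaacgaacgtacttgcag

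Flt1, the gene of VEGF receptor 1, makes a full-length kinase receptor and a soluble form that keeps the ligand-binding part and works as a decoy. The soluble form arises when exon 13 is not spliced to exon 14 and translation runs on into the intron. Both sequences below start with the last 15 bases shared by the 2 forms, in lower case. The capitals are the first 15 bases of exon 14 for the full-length form (junction chr5:147634523-147639225), and for the soluble form the 92 coding bases past exon 13 with the stop codon (minus strand, chr5:147639130-147639224, mm10, GENCODE M21).
Flt1 full length: aagttctcgttagagATTCGGAAGCGCCAC
Flt1 soluble: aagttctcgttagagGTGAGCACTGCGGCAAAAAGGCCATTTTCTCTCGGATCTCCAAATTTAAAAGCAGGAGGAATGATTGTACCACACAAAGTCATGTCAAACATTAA

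Vegfb is spliced to a heparin-binding form, VEGF-B167, and a freely diffusing form, VEGF-B186, through alternative starts of exon 6 that lie 101 bases apart (minus strand, mm10, GENCODE M21). The VEGF-B186 junction spans chr19:6985596-6985805 and the VEGF-B167 junction chr19:6985495-6985805. The last 15 bases of exon 5 are in lower case and the first 15 of exon 6 in capitals.
VEGF-B186 junction: tgtgaagccagacagGGTTGCCATACCCCA
VEGF-B167 junction: tgtgaagccagacagCCCCAGGATCCTCTG

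The libraries held 32931868 expected counts in replicate 2 and 31838341 in replicate 1, where an expected count is the number of reads assigned to a gene and can be fractional when reads match several genes. For all 10 genes it was a whole number to the 2 decimals deposited. Levels are in TPM, which counts transcripts per length and scales them to a fixed total. The tissue label was checked against adrenal markers: 5 cortex genes (Star, Cyp11a1, Cyp11b1, Hsd3b1 and Nr5a1) together reached 5090 TPM in replicate 2 and 4580 in replicate 1, and 5 chromaffin genes 2140 and 1820 TPM. Both libraries also held transcripts typical of other organs, in unequal amounts. Skeletal muscle and liver markers (5 genes each) summed to 1550 and 372 TPM in replicate 2, against 242 and 92.7 TPM in replicate 1. Kidney markers (10 genes) and pancreas markers (5 genes) summed to 10.9 and 0.49 TPM in replicate 2, against 103 and 3610 TPM in replicate 1. Of the other cell types looked for, 6 macrophage genes summed to 107 TPM in replicate 2 and 77.5 in replicate 1, 3 blood genes to 2630 and 3640 TPM, and 3 neuronal genes to 75.9 and 78.1 TPM. In bulk tissue, fewer cells of a type and less RNA per cell cannot be told apart.

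Among the ligands, Vegfa was the most abundant gene of the 10. It measured 90.7 TPM in replicate 2 and 86.25 in replicate 1, on 5216 and 4811 counts (88.5 ± 3.15 TPM, SD, n = 2). That placed it at rank 652 of 13067 protein-coding genes found at 1 TPM or more in both animals. The rank includes the gene's transcripts with no coding sequence, described below, and was not computed without them. Vegfb, whose product binds the FLT1 receptor but not KDR, measured 36.21 TPM in replicate 2 and 31.64 in replicate 1 (33.9 ± 3.23 TPM, SD, n = 2). Vegfc, the main lymphatic growth factor, was low, at 4.08 TPM in replicate 2 and 3.87 in replicate 1, on 277 and 243 counts (3.98 ± 0.148 TPM, SD, n = 2). The Vegfa level exceeded that of Vegfb by a log2 ratio of 1.39 ± 0.0863 and that of Vegfc by 4.47 ± 0.00246 (SD, n = 2). Both ratios were larger than their spread between the animals. Every pair ratio computed met that rule, so it separates little. Among them was Angpt2 to the related gene Angpt1, whose sign turned in a second quantification, described below. In that quantification the SDs of the Vegfa ratios to Vegfb and to Vegfc were 0.0642 and 0.185.

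Kdr, which encodes VEGF receptor 2, the main signalling receptor of blood endothelium, was the highest of the 3 receptor kinase genes. It measured 27.98 TPM in replicate 2 and 27.65 in replicate 1, on 5067 and 4778 counts (27.8 ± 0.233 TPM, SD, n = 2). Flt1 measured 11.25 and 11.24 TPM in replicates 2 and 1 (11.2 ± 0.00707 TPM, SD, n = 2). This was the smallest SD of the 10 genes in the first quantification but not in the second, where Flt1 had 17.9 and 19.6 TPM (SD 1.23). Flt4, the gene of VEGF receptor 3, which binds VEGF-C and is typical of lymphatic and of sprouting or fenestrated blood endothelium, measured 8.67 and 8.64 TPM (8.66 ± 0.0212 TPM, SD, n = 2). The level of Kdr exceeded that of Flt1 by 1.31 ± 0.0112 and that of Flt4 by 1.68 ± 0.00857 on the log2 scale (SD, n = 2), which is 2.49-fold and 3.22-fold in replicate 2 and 2.46-fold and 3.2-fold in replicate 1. In the second quantification the SDs of the Kdr ratios to Flt1 and to Flt4 were 0.085 and 0.00133. Vegfa stood above its receptor gene Kdr by 1.67 ± 0.0392 on the log2 scale (SD, n = 2).

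Nrp1 and Nrp2 encode neuropilins, which hold heparin-binding VEGF forms at the receptors and also bind class 3 semaphorins. Nrp1 was second only to Vegfa among the 10, at 41.94 TPM in replicate 2 and 41.08 in replicate 1, on 4604 and 4345 counts (41.5 ± 0.608 TPM, SD, n = 2). Nrp2, the partner of VEGF receptor 3 in lymphatic vessels and a gene also used by neurons, measured 19.53 TPM in replicate 2 and 18.42 in replicate 1 (19.0 ± 0.785 TPM, SD, n = 2). The log2 ratio of Nrp1 to Nrp2 was 1.13 ± 0.0385 (SD, n = 2), larger than its spread.

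The angiopoietin branch was uneven. Angpt2 was the lowest of the 10 genes, at 1.89 TPM in replicate 2 and 1.76 in replicate 1, on a mean of 198 counts (1.82 ± 0.0919 TPM, SD, n = 2). Tek measured 16.85 TPM in replicate 2 and 15.98 in replicate 1, on 2372 and 2129 counts (16.4 ± 0.615 TPM, SD, n = 2). The log2 ratio of the levels was -3.16 ± 0.0183 for Angpt2 to Tek and -0.54 ± 0.0531 for Flt1 to Tek (SD, n = 2), so both genes lay below Tek. Angpt2 passed the 1 TPM detection limit by less than 1 TPM, so its rank of 12396 of 13067 protein-coding genes lies near the lower edge of what was counted.

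In order of level the genes ran Vegfa, Nrp1, Vegfb, Kdr, Nrp2, Tek, Flt1, Flt4, Vegfc and Angpt2. All 9 neighbouring pairs in this order were separate, in that the animals' ranges did not overlap and the gap was larger than the sum of both SDs. The closest gaps for their spread were those of Nrp1 over Vegfb, 7.59 TPM against summed SDs of 3.84 TPM, Vegfb over Kdr, 6.11 against 3.46 TPM, and Nrp2 over Tek, 2.56 against 1.4 TPM. A second quantification, made from the read files, gave the same order of all 10 genes with all 9 neighbours separate. Its TPM values were higher throughout, by 1.67-fold for Flt1 to 2.6-fold for Angpt2, against a median of 1.82-fold over 14199 genes (quartiles 1.68 and 2.06).

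**Figure D1:**
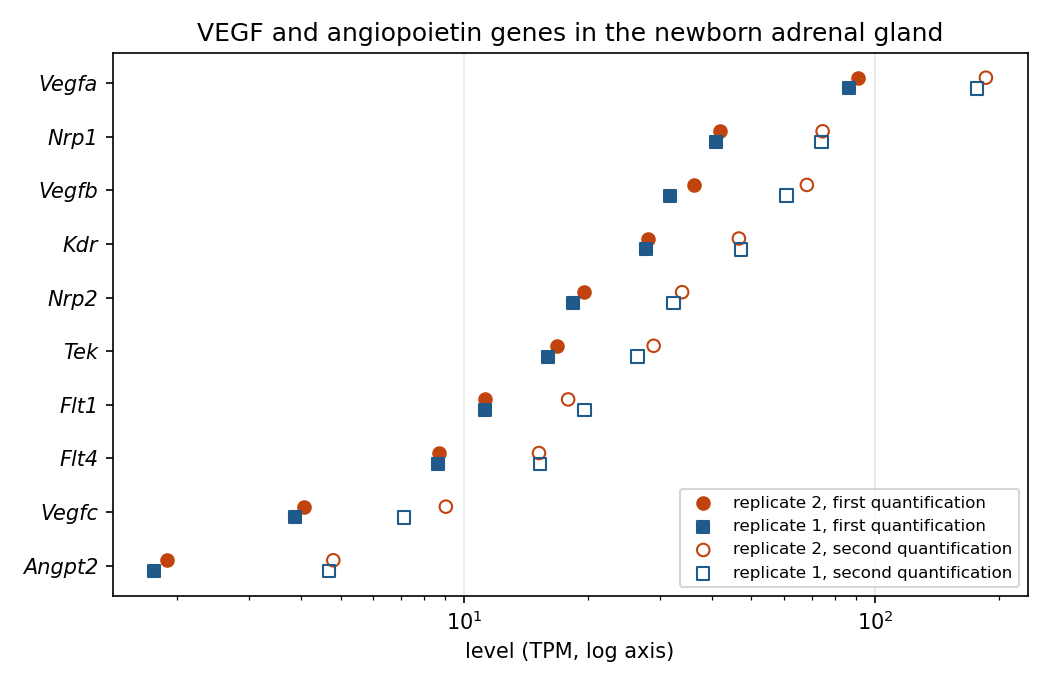
Level of each gene in TPM on a log axis, in replicate 2 (circles) and replicate 1 (squares); filled symbols are the first quantification and open symbols the second. Genes run from Vegfa at the top (90.7 and 86.25 TPM) to Angpt2 at the bottom (1.89 and 1.76 TPM), and the second quantification keeps the order at higher values.

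The genes lie on 7 chromosomes of the mm10 assembly. On chromosome 5, Kdr (ENSMUSG00000062960.10) spans chr5:75932827-75978458 and Flt1 (ENSMUSG00000029648.13) chr5:147561604-147726011, both on the minus strand. Chromosome 8 holds Angpt2 (ENSMUSG00000031465.6, chr8:18690263-18741562, minus strand), Vegfc (ENSMUSG00000031520.6, chr8:54077606-54187096, plus strand) and Nrp1 (ENSMUSG00000025810.9, chr8:128358604-128503363, plus strand). Vegfa (ENSMUSG00000023951.17) spans chr17:46016993-46032369 and Vegfb (ENSMUSG00000024962.13) chr19:6982473-6987651, both on the minus strand, and they are the shortest of the 10 genes at 15.4 and 5.18 kb. Flt4 (ENSMUSG00000020357.3, chr11:49609263-49652739), Nrp2 (ENSMUSG00000025969.15, chr1:62703285-62818695) and Tek (ENSMUSG00000006386.15, chr4:94739289-94874976) lie on the plus strand.

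In size, the 10 genes differed between the animals by about as much as other genes, but their direction was more one-sided. Differences are log2 ratios of replicate 2 over replicate 1 from counts scaled by TMM (a trimmed mean over all genes), with a 95% counting interval that covers counting error only. None of the 10 reached 2-fold, where 3.21% did of the 13734 genes whose mean count was 100 or more, and none reached 1.5-fold, where 5.52% did. All 10 ratios were above 0, from 0.06 for Flt1 to 0.27 for Vegfb, with a median of 0.13. Over the 13734 genes the median was 0.0205, the median size without the sign was 0.109, and 55.3% were above 0. The count of 0 at 2-fold lies near the share over all genes and sets the 10 genes apart in no way. The interval excluded 0 for 6 of the 10, all of them toward replicate 2. Over all genes it did so for 41.1% in either direction and 23.4% toward replicate 2.

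Vegfb was furthest from 0, with a log2 ratio of 0.27 (95% counting interval 0.15 to 0.39). Of the others whose interval excluded 0, Nrp2 had 0.20 (0.13 to 0.27), Tek had 0.15 (0.07 to 0.24) and Vegfa had 0.11 (0.06 to 0.17). Kdr and Nrp1 each had 0.08 (0.02 to 0.14). For Flt1, Flt4, Vegfc and Angpt2 the interval included 0, and that of Angpt2 was wide, from -0.15 to 0.43. The direction rests on the scaling for some genes. With spike-in counts as the scale, 7 of 10 ratios were above 0, with a median of 0.05. Those of Flt1, Flt4 and Nrp1 were below 0 by at most 0.02. On the same scale 34.3% of all 13734 genes counted were above 0, and the median over those genes was -0.0594. Several marker lists moved too. Ratios were above 0 for 5 of 5 adrenal cortex genes (median 0.14), 5 of 5 chromaffin genes (0.29) and 6 of 6 macrophage genes (0.46), and for 0 of 3 blood genes (-0.46). Medians nearer 0 were those of the endothelial genes, with 7 of 12 above 0 (0.04), and the neuronal genes, with 1 of 3 (-0.05). The muscle and liver markers were higher in replicate 2 and the kidney and pancreas markers higher in replicate 1, by the sums given above. The part of these markers in the ratios of the 10 genes was not tested.

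**Figure D2:**
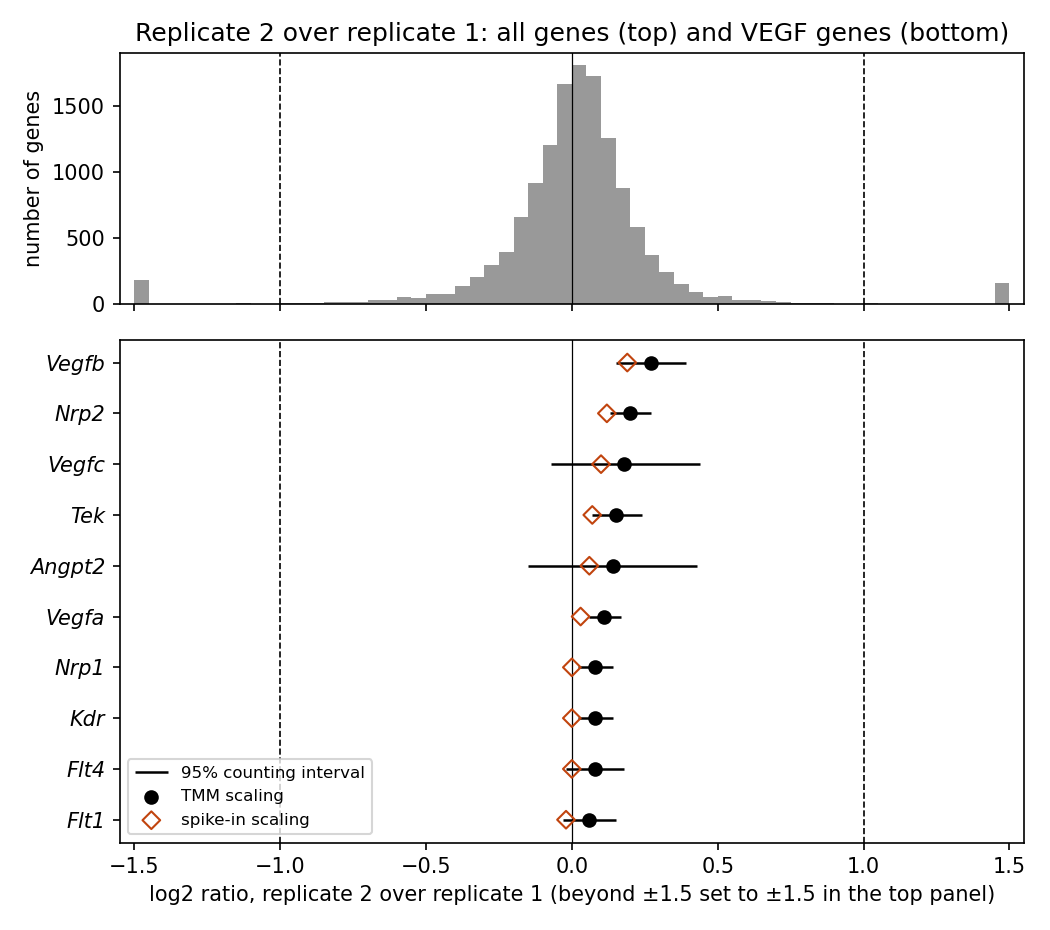
Log2 ratio of replicate 2 over replicate 1 on the x axis: top, number of genes per bin for the 13734 genes counted, with ratios past 1.5 in size drawn in the end bins; bottom, the 10 genes with TMM scaling (points, lines are 95% counting intervals) and spike-in scaling (diamonds). Dashed lines mark 2-fold, which no member reaches; the TMM points run from 0.06 to 0.27.

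Set against endothelium, the receptor genes were a similar part in both animals. The 12 endothelial genes of the list (Pecam1, Cdh5, Egfl7, Emcn, Eng, Esam, Cldn5, Erg, Robo4, Tal1, Mmrn2 and Plvap) together measured 381 TPM in replicate 2 and 402 in replicate 1, and all 12 were at 1 TPM or more in both. Over the whole annotation, 14669 of 55536 genes were at 1 TPM or more in both. None of the 12 reached 2-fold, against 3.21% of the 13734 genes counted, with a median log2 ratio of 0.04. Kdr amounted to 7.34% of that sum in replicate 2 and 6.89% in replicate 1, Tek to 4.42% and 3.98%, Flt1 to 2.95% and 2.8%, and Flt4 to 2.27% and 2.15%. Vegfa, which is made mainly outside the endothelium in most organs, amounted to 23.8% and 21.5%. Every one of the 10 stood higher against the endothelial sum in replicate 2, by 0.08 (Flt1 and Flt4) to 0.27 (Vegfb) on the log2 scale. That count was fixed by values given above, since each of the 10 had the higher TPM in replicate 2 and the sum was lower there. By TPM alone, 42.6% of 13734 genes were higher in replicate 2. The share of all genes that stood higher against the sum was not computed. The sum itself was lower in replicate 2 mainly through Egfl7, a secreted endothelial factor, at 88.87 TPM against 105.43 TPM in replicate 1, while the junction genes Cdh5 and Pecam1 were higher, at 44.07 and 40.68 TPM in replicate 2 against 42.36 and 39.27 TPM in replicate 1.

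Vegfa had 13 annotated transcripts, 8 of them coding. The VEGF164 class led the coding ones in both animals: it held 56.6% of coding TPM in replicate 2 and 63.2% in replicate 1 (59.9 ± 4.67%, SD, n = 2). The VEGF120 class held 32.1% and 30.6% (31.4 ± 1.02%), and the VEGF188 class 11.3% and 6.17% (8.75 ± 3.65%, SD, n = 2). In TPM, VEGF164 stood at 26.8 in replicate 2 and 27.7 in replicate 1, VEGF120 at 15.2 and 13.4, and VEGF188 at 5.36 and 2.7. So the ranges of the 3 classes did not overlap, and in this first transcript table VEGF188 was, relative to its level, the class that differed most between the animals.

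The second transcript table gave the same order with a smaller lead of VEGF164. There VEGF164 held 44.5% of coding TPM in replicate 2 and 47.3% in replicate 1, VEGF120 39.4% and 34.1%, and VEGF188 16.1% and 13.5%. In TPM, VEGF188 stood at 14.9 in replicate 2 and 12.3 in replicate 1, and VEGF120 at 36.3 and 31.0. The relative difference of VEGF188 between the animals was thus much smaller than in the first table. The fold of VEGF164 over VEGF120 was 1.76 in replicate 2 and 2.06 in replicate 1 in the first table, and 1.13 and 1.39 in the second. An exon 6 form without exon 7, Vegfa-203, had 4.6 TPM in replicate 1 of the second table and 0 elsewhere. The models differ outside the alternative exons too: exon 8 is 1887 bases long in the leading VEGF120 and VEGF164 models and 337 bases in the VEGF188 model, so reads over the rest of that exon could not be given to VEGF188. The VEGF164 and VEGF188 models are also annotated with a coding start further upstream in exon 1 (600 coding bases there, against 66 in the VEGF120 model), so their annotated coding lengths of 368 and 392 codons exceed those of the classical proteins. The leading VEGF164 model is 3451 bases long and the leading VEGF120 model 2765, which is further apart than the 132 bases of exon 7. Their shares therefore rest on bases outside exon 7 as well, and how far this bears on the lead of VEGF164 was not tested.

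**Figure D3:**
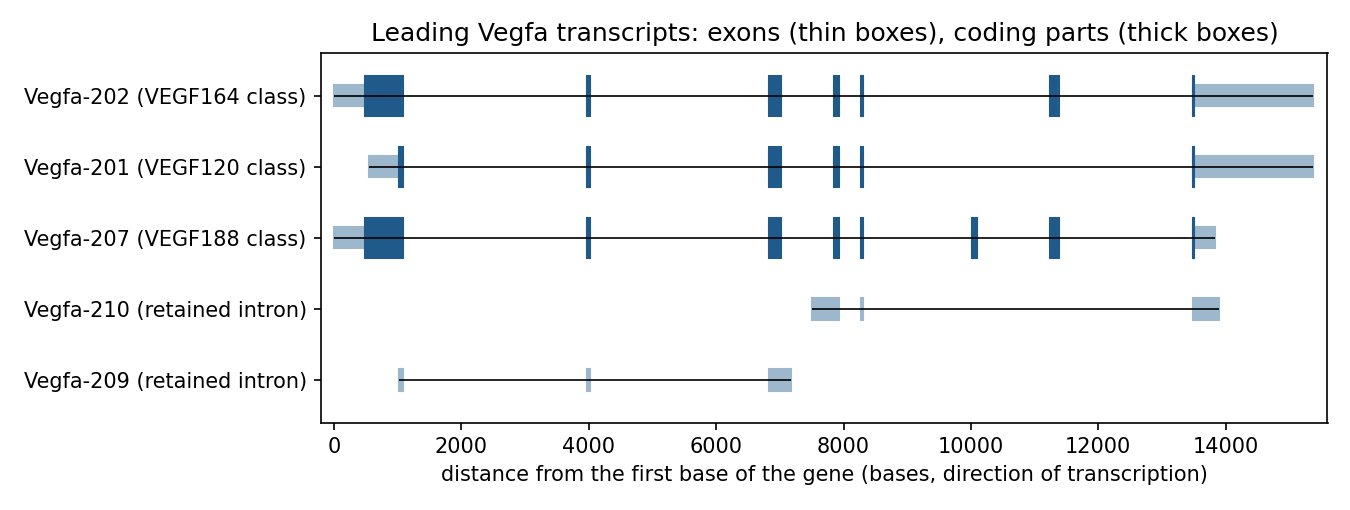
Exon maps of 5 Vegfa transcripts, with distance in bases from the start of the gene in the direction of transcription on the x axis; thin boxes are exons and thick boxes coding parts. The VEGF120 model lacks exons 6 and 7 of the VEGF188 model, the VEGF164 model lacks exon 6, and Vegfa-209 and Vegfa-210 cover part of the gene and keep intron sequence.

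A large share of the Vegfa TPM went to transcripts with no coding sequence, all of them annotated as retained introns: 47.8% in replicate 2 and 49.2% in replicate 1. These models are short, and TPM divides by length. The largest, Vegfa-209 of 463 bases, took 22.5% and 22.4% of the gene's TPM but 4.54% and 4.49% of its expected counts. Vegfa-210, of 852 bases, took 20.6% and 17.7% of TPM and 8.58% and 7.37% of counts. With coding transcripts only, Vegfa measured 47.3 TPM in replicate 2 and 43.8 in replicate 1. It remained first of the 10 genes, above Nrp1 at 38.2 and 36.3 TPM on the same measure, but the log2 ratio of Vegfa to Vegfb became 0.49 and that of Vegfa to Kdr 0.83. On coding transcripts, Nrp1 and Vegfb, and Nrp2 and Tek, were not separate beyond their spread. With coding transcripts of the second table the order of that first pair turned, Vegfb lying above Nrp1 by 0.497 TPM, within their spread.

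The full-length receptor led the coding Flt1 transcripts by about the same margin in both tables. It held 64.6% of coding TPM in replicate 2 and 69.9% in replicate 1, and the soluble form 35.4% and 30.1% (32.7 ± 3.77%, SD, n = 2). In TPM the full-length form stood at 5.77 in replicate 2 and 6.19 in replicate 1, and the soluble form at 3.16 and 2.66. The second table gave 34.5% and 30.0% for the soluble form. In both tables the soluble share was the higher in replicate 2. The gene's level hardly differed in the first quantification, at 11.25 and 11.24 TPM, but was 17.9 TPM in replicate 2 and 19.6 in replicate 1 in the second. The last exon of the soluble model is 4375 bases long, of which 4066 lie in what is an intron of the full-length model, so reads of unspliced RNA there would be counted with the soluble form; how many did was not tested. Transcripts with no coding sequence held 20.7% and 21.2% of the gene's TPM in the first table and 11.4% and 21.2% in the second.

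The 2 forms of Vegfb were nearly level. VEGF-B186 held 49.3% of coding TPM in replicate 2 and 44.7% in replicate 1, and VEGF-B167 50.7% and 55.3%. In TPM, VEGF-B186 stood at 17.3 in replicate 2 and 13.4 in replicate 1, and VEGF-B167 at 17.8 and 16.6, so most of the difference between the animals in this gene lay in the diffusing form. The second table gave 46.9% and 43.2% for VEGF-B186.

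Nrp2 transcripts end in alternative cytoplasmic tails, of which the A tail carries a motif that binds PDZ proteins and the B tail does not. The 4 transcripts with the A tail held 71.5% of coding TPM in replicate 2 and 73.4% in replicate 1 (72.5 ± 1.37%, SD, n = 2), and the 2 with the B tail the rest. The second table gave 70.9% and 71.8%. Within the tails single transcripts were unstable: the A-tail transcript with the longest coding sequence, 931 codons, had 0.14 TPM in replicate 2 and 1.34 in replicate 1, and the B-tail transcript of 906 codons had 0 and 0.66 TPM.

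**Figure D4:**
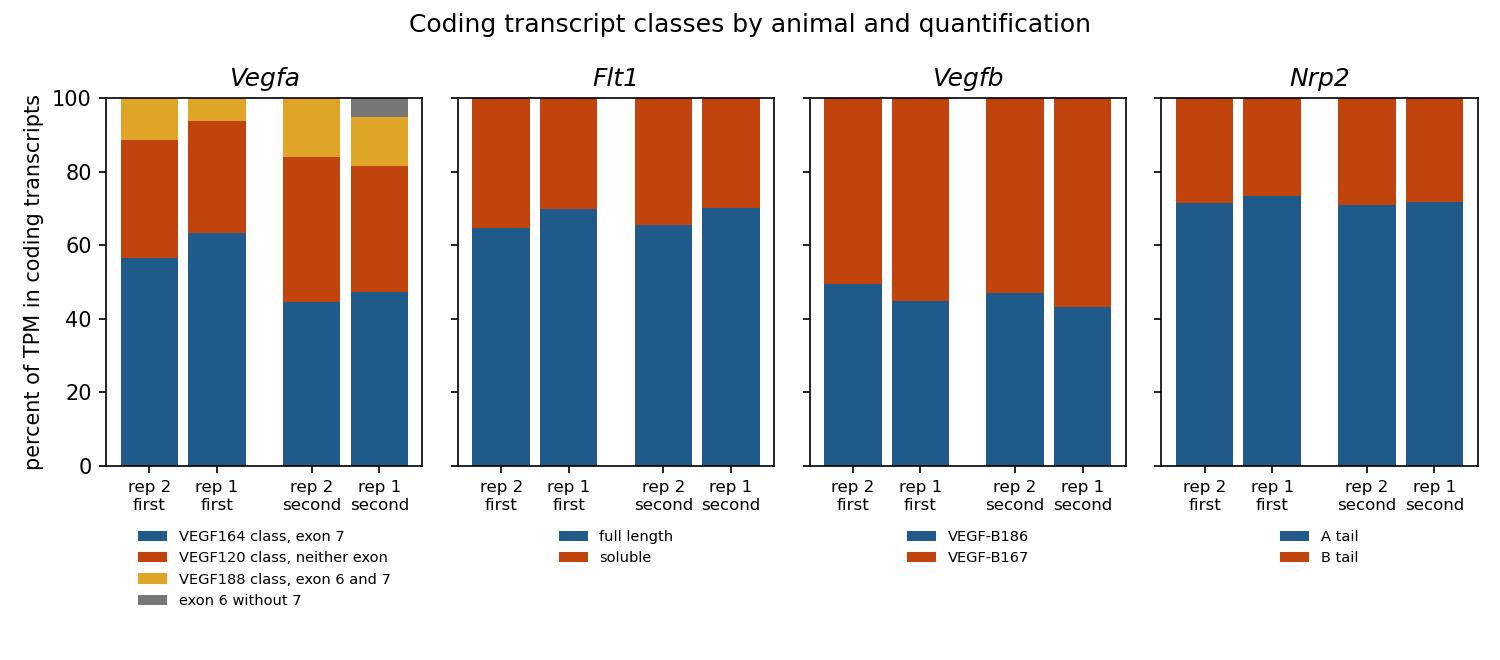
Stacked bars of the percent of coding TPM by transcript class for Vegfa, Flt1, Vegfb and Nrp2, each in replicates 2 and 1 of the first and the second table. VEGF164 is the largest Vegfa class in all 4 bars (44.5% to 63.2%), the soluble Flt1 share runs from 30.0% to 35.4%, and the A tail of Nrp2 from 70.9% to 73.4%.

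The share of transcripts with no coding sequence was lower in replicate 2 for all 9 genes of the 10 that had any in the first table. Its median over these 9 was 7.61% of the gene's TPM in replicate 2 and 11.7% in replicate 1. The same direction held for 69.7% of 9487 protein-coding genes with such transcripts, whose median share was 14.6% in replicate 2 and 17.2% in replicate 1, so the members shared their direction with most genes of the libraries. Examples are Nrp2, at 6.76% in replicate 2 and 11.7% in replicate 1, Flt4, at 7.61% and 11.9%, and Kdr, at 6.22% and 9.19%. By counts, 8 of 9 were lower in replicate 2, against 72.3% of protein-coding genes, with Flt1 the exception at 7.14% against 6.76%. The second quantification had 7 of 10 lower by TPM, near the 67.8% of protein-coding genes there. That quantification alone gave Angpt2 such a share, 38.6% in replicate 2 and 36.3% in replicate 1.

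**Figure D5:**
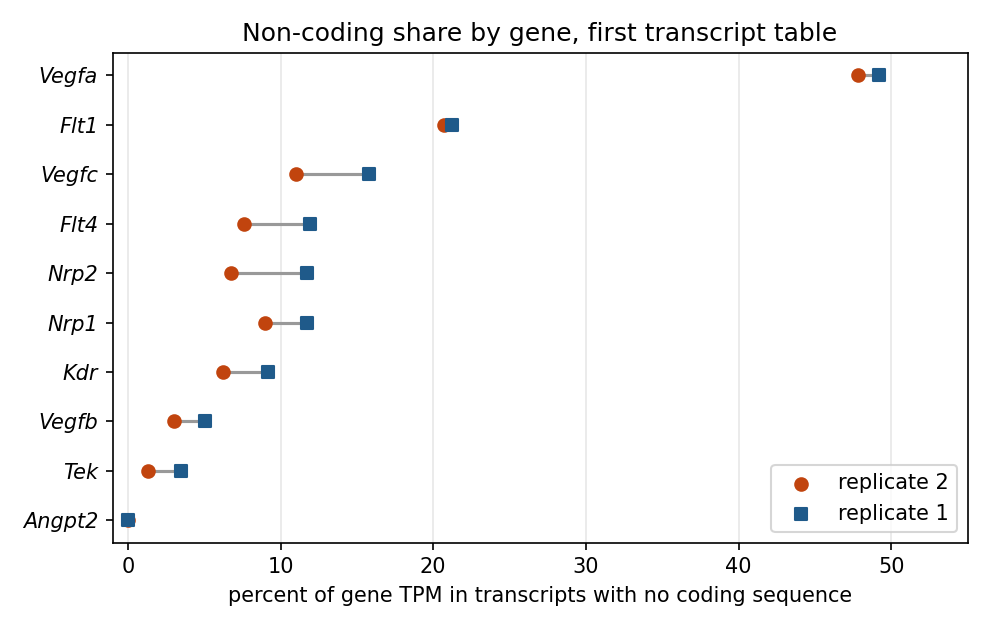
Percent of each gene's TPM in transcripts with no coding sequence (x axis), in replicate 2 (circles) and replicate 1 (squares), first table. The circle lies left of the square in 9 genes; Angpt2 is at 0 in both, and Vegfa is furthest right at 47.8% and 49.2%.

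Relatives of the 10 genes filled in the family. Vegfd, the other ligand of VEGF receptor 3, measured 14.09 TPM in replicate 2 and 13.74 in replicate 1, above Vegfc in both animals. Placental growth factor, Pgf, which binds the FLT1 receptor, was at 1.52 ± 0.0141 TPM (SD, n = 2). Angpt1, the agonist of TIE2, measured 2.47 TPM in replicate 2 and 2.16 in replicate 1, and Angpt4 rested on 12 counts in each animal. The orphan receptor gene Tie1, partner of Tek, measured 19.81 and 19.85 TPM, and the log2 ratio of Tek to Tie1 was -0.27 ± 0.0561 (SD, n = 2). The log2 ratio of Angpt2 to Angpt1 was -0.34 ± 0.0639 (SD, n = 2), but 0.09 in the second quantification, so their order was not settled. None of the 3 relatives with enough counts reached 2-fold between the animals, where 3.21% of all genes counted did. Their median log2 ratio was 0.08.

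The genes that act on or beside these were present too. Of 7 oxygen-sensing genes, which govern Vegfa transcription in many tissues, all 7 were at 1 TPM or more in both animals and none reached 2-fold, with a median log2 ratio of 0.06. Epas1, the endothelial and chromaffin hypoxia-inducible factor, was the highest in the first quantification at 48.84 TPM in replicate 2 and 46.1 in replicate 1, above Hif1a at 26.93 and 27.68 TPM. In the second, Egln2, an oxygen-sensing prolyl hydroxylase gene, stood above Epas1, at 104 against 79.8 TPM in replicate 2, and likewise in replicate 1. Of 10 hypoxia target genes, 8 were at 1 TPM in both. Their median log2 ratio over the 8 with a mean count of at least 100 was 0.22, with 6 above 0, against the median of 0.0205 over all genes. Ldha, a glycolytic enzyme gene also high in muscle, led at 131.59 TPM in replicate 2 and 99.83 in replicate 1, while Ndrg1 went the other way, at 16.05 against 28.28 TPM. None of the 8 reached 2-fold. Over all genes counted 3.21% did, so neither list stands apart by that count.

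Of 12 genes of VEGF and TIE2 receptor signalling, 11 were at 1 TPM in both animals and none of the 10 with enough counts reached 2-fold, with a median log2 ratio of 0.03. Plcg1, the phospholipase recruited to activated KDR, was the highest at 39.5 TPM in replicate 2 and 47.28 in replicate 1. The adaptor genes Shb, at 19.69 and 18.69 TPM, and Nck1, at 17.68 and 17.14 TPM, lay below it, and their order in replicate 1 turned in the second quantification (35.5 TPM for Shb, 41.8 for Nck1). Of 13 partners of the neuropilins, 12 were at 1 TPM in both and none of the 12 with enough counts reached 2-fold, with a median log2 ratio of -0.1. Plxnd1, a plexin of endothelium, was the highest at 98.21 TPM in replicate 2 and 96.8 in replicate 1, above Vegfa in the first quantification. In the second it lay below Vegfa, at 139 against 177 TPM in replicate 1, and likewise in replicate 2. Among class 3 semaphorins, Sema3c measured 10.65 TPM in replicate 2 and 13.51 in replicate 1, and Sema3f, named after its values were seen, 11.16 and 11.71 TPM, so which was higher differed between the animals. Of 8 genes that release or process the ligands, 7 were at 1 TPM in both: Ctsd, a lysosomal protease gene, was at 205.14 TPM in replicate 2 and 191.48 in replicate 1, and Furin, a proprotein convertase gene that cleaves VEGF-C, at 46.2 and 49.94 TPM. Adamts1, a matrix protease gene, measured 9.23 TPM in replicate 2 and 14.36 in replicate 1. None of the 6 with enough counts reached 2-fold, and their median was -0.05. Of the 6, 1 had a ratio above 0, against 55.3% of all genes counted. At 2-fold the share over all genes was 3.21%, so none of these lists stands apart by that count.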

How the data were processed

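Total RNA-seq tables of 2 adrenal glands were used. Per the file headers and the authors' notes, the first quantification (expected counts and TPM per gene and transcript) was made by the authors from transcriptome alignments to mm10 with annotation M21. The second (deposited estimated counts and TPM per transcript, summed here to genes) came from the read files. The sources used here do not name the aligner or quantifier. In the first, effective lengths fell short of transcript lengths by 99 bases, and in the second by 330 or 331 bases. Coordinates and transcript classes came from GENCODE M21, the annotation the notes name.

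Levels are the deposited TPM, averaged over both animals and given with the SD. Log2 ratios between animals used expected counts rounded to whole numbers, TMM factors of 0.985 and 1.02 for replicates 2 and 1 and a prior of 0.5 counts. Genes were called at 2-fold with a mean count of at least 100, a rule of size. No test between conditions was possible, so edgeR served for scaling only. Intervals are 95% exact (Clopper-Pearson) ones. The labels name no molecular identifiers, so reads may be copies and the intervals cover counting error only, as does the floor of 3 counts (9.11e-06% and 9.42e-06% of replicates 2 and 1). Pair ratios used a pseudocount of 0.01 TPM. Transcripts were classed by exon content. Named genes were the 10 members, the highest genes of each list and transcripts with at least 5% of their gene; the text gives the main ones. The 10 pathway and context lists held 88 genes, of which 87 matched, and Ccl21a did not match 1 gene. Apart from the shared endothelial list, the 10 cell type marker lists are not in that count. Members and lists were chosen with earlier results of these data known, and the Vegfb, Nrp2 and non-coding shares after their values were seen. Alternatives are listed with their effects at the end. The ratio step was tested on simulated data. Tools were Python 3.11.15, pandas 2.3.3, numpy 2.4.6, matplotlib 3.10.9, R 4.3.3, edgeR 4.0.16 and DESeq2 1.42.0.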

Additional observations from a re-analysis of the deposited data

How the results depend on the processing

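The count of members differing 2-fold was 0 under every alternative run: DESeq2 size factors, total counts, spike-in counts, deposited TPM, the second quantification, a prior of 5 counts, a mean count of at least 20 or none, and a 1.5-fold rule. None of the 9 log2 ratios between 2 members that were run changed sign. With the second quantification the log2 ratio became 1.49 for Vegfa to Vegfb, 4.5 for Vegfa to Vegfc, 1.32 for Kdr to Flt1, 1.62 for Kdr to Flt4, -2.54 for Angpt2 to Tek and 1.95 for Vegfa to Kdr; the ratio of Angpt2 to Angpt1 turned to 0.09. A pseudocount of 1 TPM gave 4.17 for Vegfa to Vegfc, 2.81 for Vegfb to Vegfc, 1.23 for Kdr to Flt1, 1.58 for Kdr to Flt4, 1.09 for Nrp1 to Nrp2 and -2.62 for Angpt2 to Tek. Coding transcripts only, an alternative chosen after seeing the data, gave 0.49 for Vegfa to Vegfb, 3.72 for Vegfa to Vegfc, 3.24 for Vegfb to Vegfc, 1.53 for Kdr to Flt1, 1.71 for Kdr to Flt4, -3.13 for Angpt2 to Tek, -0.85 for Flt1 to Tek and 0.83 for Vegfa to Kdr; fewer transcripts were counted by construction. Of the other values, 18 moved by more than 1 SD or their counting interval with the second quantification, 7 with coding transcripts only, 6 with the deposited posterior mean TPM, 4 with spike-in scaling, 2 with the deposited TPM and 1 with a pseudocount of 1 TPM.

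As a mean percent of all TPM of the gene, VEGF164 held 30.8, against 23.2 in the second table, 57.1 by counts and 59.9 of coding transcripts. VEGF120 held 16.2, against 18.5, 23.8 and 31.4, and VEGF188 4.52, against 7.47 in the second table and 8.75 of coding transcripts. Full-length Flt1 held 53.2, against 56.6, 64.5 and 67.3, and soluble Flt1 25.9, against 32.7 of coding transcripts. VEGF-B186 held 45.1, against 49.1 by counts, and the Nrp2 A tail 65.7, against 70.1 by counts and 67.4 in the second table. The cause of the differences between tables was not tested. Leaving out either replicate gives the other animal's value, which with 2 animals lies within 1 SD of the mean by construction; a ratio between animals has no such value. No paired analysis was possible because there is 1 group. Depth limited Angpt2 most, at a mean of 198 counts.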

Other observations

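Other vessel genes that the text above does not cover were also read. Of 10 arterial and tip cell genes, all 10 were at 1 TPM or more in both animals, with a median log2 ratio of 0.03. None reached 2-fold, where 3.21% of all genes counted did. Aplnr, the apelin receptor gene of venous and capillary endothelium, led at 40.34 TPM in replicate 2 and 35.48 in replicate 1. Cxcr4, a chemokine receptor gene, measured 15.6 and 12.82 TPM and Efnb2, an ephrin gene of arteries, 12.34 and 14.76 TPM, so their order differed between the animals. Sox17, an arterial transcription factor gene, measured 8.51 and 8.23 TPM, near Flt4 in level.

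All 4 matched lymphatic genes were above 1 TPM in both animals, with a median log2 ratio of 0.19. Prox1, the lymphatic master regulator, which other cell types also express, stood at 16.49 TPM in replicate 2 and 15.25 in replicate 1, and Lyve1, a hyaluronan receptor gene shared with macrophages, at 9.02 and 8.6 TPM. All 6 pericyte genes exceeded 1 TPM in both, led by Pdgfrb at 18.43 and 18.86 TPM and Rgs5 at 14.16 and 14.01 TPM. Their median log2 ratio was 0.05, and none was at 2-fold, where 3.21% of all genes counted were.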
